A study of Mus musculus with 21 samples.

Results

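Mitochondrial ribosomal protein genes are the nuclear genes of the Mrpl (large subunit, 39S) and Mrps (small subunit, 28S) series. Members were taken as the rows of the count table whose Ensembl ID belongs to a protein-coding mouse gene with a symbol of Mrpl or Mrps plus a number in GENCODE M21, with at least 10 counts in at least 3 libraries. There were 78 such genes of 22136 in the table, 49 of the Mrpl and 29 of the Mrps series, and the filter removed none of them. Counts and medians of the large and small subunit below are those of the Mrpl and Mrps symbol series. The Mrps series includes Mrps18a and Mrps30, which sit in the large subunit, and Mrps36, which in human cells does not belong to the ribosome. The lowest count of any member in any library was 31, and all 78 were among the 12626 genes that entered the tests. Dap3, Ptcd3, Chchd1, Aurkaip1 and Gadd45gip1, whose proteins also sit in the mitoribosome, carry other names and were kept as a separate list.

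RNA-seq was run on left ventricles of male wild-type C57BL/6J mice, bought at 8 weeks of age, after transverse aortic constriction (TAC), in which a ligature narrows the aortic arch so that the left ventricle works against a raised pressure, or after sham surgery. The groups were TAC 8W + Sema 8W, TAC 8W and Sham + Sema (n = 3 each), TAC 8W + Sema 4W (n = 3), Sham + Sema 4W (n = 3), and Sham (n = 6), where Sema is semaglutide, a GLP-1 receptor agonist injected into the peritoneum daily, and mice without it received vehicle. The time after surgery was 8 weeks in every TAC group, and Sema was given over 8 weeks or over the last 4 weeks. The title of the Sham + Sema group names no duration, and the columns of the TAC 8W + Sema 8W and both 4-week groups were matched by elimination. Those columns are named "high" and "M" and not by a duration. The labels give every Sema group the same daily dose, 60.0 mg/kg (the methods write micrograms). The study used several doses, and whether the column words mark a dose or a duration is not stated. The 8-week and 4-week names rest on that matching.

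The column names separate shams 1 to 3 from shams 4 to 6, and the libraries fell into a set of 12 (TAC 8W + Sema 8W, TAC 8W, Sham + Sema, Sham 1-3) and a set of 9 (TAC 8W + Sema 4W, Sham + Sema 4W, Sham 4-6). The share of counts on the 13 mitochondrially encoded protein genes was 20.2% to 40.8% in the first set and 43.8% to 54.9% in the other, with no overlap. No label explains these sets. Shams 1 to 3 and 4 to 6 were kept as separate means, and 7 of the 10 comparisons were made within a set, while TAC 8W + Sema 4W against TAC 8W, the same with each against its shams, and Sham 4-6 against Sham 1-3 cross the sets. Total counts were 8897837 to 17170139 per library. The labels call the cells cardiomyocytes, yet all 8 fibroblast, 8 endothelial and 8 macrophage marker genes were above 0 counts in every library, as were all 8 cardiomyocyte markers. In such tissue, fewer cells of a type and less RNA per cell cannot be told apart.

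The mitoribosome translates the mRNAs of the mitochondrial genome, which encode core subunits of the respiratory chain and ATP synthase. Its rRNAs come from mitochondrial DNA, whereas all of its proteins are encoded in the nucleus, made in the cytosol and imported. Some of these proteins descend from bacterial ribosomal proteins, while others were added in mitochondria, and loss of several members causes cardiomyopathy in humans. Heart muscle is rich in mitochondria and depends on their output. Of the 78 members, 47 have a bacterial counterpart, 29 have none and 2 were not classed (Mrpl58 and Mrps36).

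Members were expressed over a 72.0-fold range on a per-length scale, library-scaled counts (CPM) per kilobase of merged exon, averaged over the 21 libraries. The highest level was that of Mrps21, a small-subunit protein of bacterial origin, at 275 CPM per kb. It was followed by Mrpl12, the large-subunit stalk protein that also binds the mitochondrial RNA polymerase, at 148 CPM per kb, and by Mrpl28 at 120.0 CPM per kb. The lowest were Mrps10 at 3.82, Mrpl47 at 4.78 and Mrps2 at 4.92 CPM per kb. The median was 29.2 CPM per kb in the Mrpl series and 21.3 CPM per kb in the Mrps series. Lengths count every annotated exon, so a member with long, rarely used exons has a low value on this scale. All members together took 0.444% to 0.732% of the counts of a library.

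Members were shorter than the genes tested as a whole, with a median merged exon length of 2394 against 4419 bases, and had a median GC content of 49.8%. Exons of 23 members overlap those of another gene of the table, in 19 of them on the opposite strand only, and the strand setting of the counting is not given in the sources used here. Reads of these members and of their neighbours may therefore have been shared. Mrps36, Mrpl23 and Mrpl48 also have named pseudogenes.

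Promoters of members carry short motifs of transcription factors that act on many nuclear genes of mitochondria, and these were searched in the RefSeq windows (GRCm38.p6, 250 bases before to 50 bases after a start site, both strands). RefSeq windows were matched by symbol to 69 members, and 36 of them held at least 1 of the next 3 motifs. The motif of GABP and other ETS factors, CCGGAAG, was present in 37.7% of these members, 19.7% of 9885 tested genes and 9.93% of all 27025 genes. The core of the NRF-1 motif, GCGCATGCG, was present in 10.1% of members, 4.00% of tested genes and 1.95% of all genes. The YY1 motif, AAGATGGCG, was present in 11.6% of members, 3.54% of tested genes and 1.64% of all genes. The cAMP response element TGACGTCA was present in Mrpl16 and Mrpl49 (2.90%), against 3.41% of tested genes and 2.03% of all genes. The NR4A motif AAAGGTCA was in 0 members, against 1.27% of tested genes and 1.70% of all genes, and the ERR motif TCAAGGTCA in 0 members, against 0.354% and 0.466%. These matches are letters in a window and show no binding.

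Of the 4 members with the smallest p in the TAC 8W comparisons (Mrps31, Mrpl39, Mrpl1 and Mrps24), the windows of 2 held a searched motif, and these are printed 5′ to 3′ on the strand of the gene with the motif in capitals.
Mrpl39: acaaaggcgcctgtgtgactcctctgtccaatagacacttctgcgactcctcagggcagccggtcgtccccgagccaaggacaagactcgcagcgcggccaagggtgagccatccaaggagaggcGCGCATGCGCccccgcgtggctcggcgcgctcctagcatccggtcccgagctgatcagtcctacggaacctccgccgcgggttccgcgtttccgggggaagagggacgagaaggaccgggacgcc
Mrps24: cgggtcgcgccggcccAAGATGGCGtggtc
The Mrpl39 stretch is the 250 bases before the start site (chr16:84735245-84735494, minus strand), and its capitals mark NRF-1 cores on both strands that overlap each other, 125 bases before the start. The Mrps24 stretch is 30 bases long (chr11:5707652-5707681, minus strand), and its YY1 motif begins 36 bases after the start.

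Members moved together from library to library. As the level of a library, the median over members of the difference from each gene's mean log2 CPM over 21 libraries was taken, with TMM library sizes. It was highest in Sham + Sema replicate 3 (0.90), where 78 of 78 members were above their mean, and in Sham + Sema 4W replicate 3 (0.78). It was lowest in TAC 8W replicate 1 (-0.92), where 0 of 78 members were above their mean. These libraries stood apart from the others of their own groups. The other TAC 8W libraries were at 0.12 and -0.23, the other Sham + Sema libraries at 0.05 and -0.19, and the other Sham + Sema 4W libraries at 0.24 and 0.33. In TAC 8W + Sema 4W, replicate 3 was at -0.37 and the other libraries at 0.22 and 0.21. TAC 8W + Sema 8W libraries were at 0.02, -0.26 and 0.03, and sham libraries between -0.37 and 0.24.

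**Figure D1:**
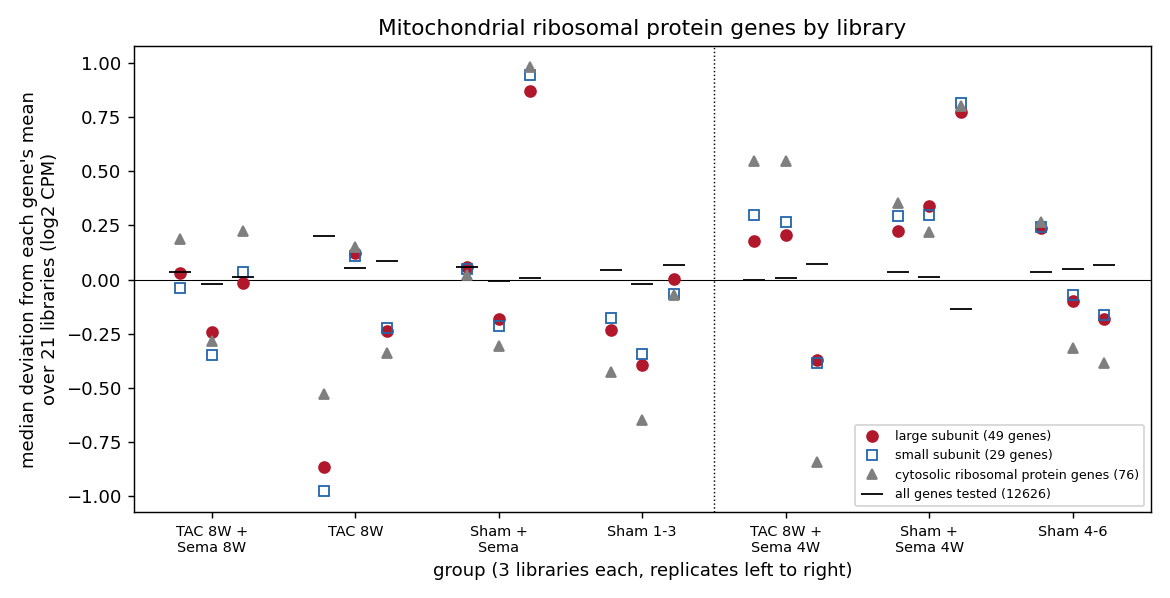
Median deviation from each gene's mean log2 CPM in each of the 21 libraries (y axis), for the large subunit, the small subunit, the cytosolic ribosomal protein genes and all genes tested, by group (x axis, 3 libraries each, the dotted line separating the library sets). Large and small subunit lie within 0.12 of each other in every library, with TAC 8W replicate 1 lowest and Sham + Sema replicate 3 highest.

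Large and small subunit did not separate in any library, with medians within 0.12 of each other. The within-group SD of the library medians was 0.36 on the log2 scale. Over all libraries the median SD of a member was 0.46, against 0.64 for all genes tested, and it was 0.23 once the library median was taken out. The members that departed most from the library median were Mrps2 (residual SD 0.78), Mrpl1 (0.77) and Mrpl9 (0.62). Mrpl1, the protein of the stalk next to the exit site for tRNA, and Mrps2, of the small subunit, departed in opposite ways across the sets. Mrps2 had 11.97, 10.2 and 19.6 CPM in TAC 8W + Sema 4W, 7.16, 11.7 and 5.74 CPM in Sham + Sema 4W and 7.29, 13.5 and 13.04 CPM in Sham 4-6. It had 17.5, 21.3 and 18.3 CPM in TAC 8W + Sema 8W, 11.96, 20.1 and 14.2 CPM in TAC 8W, 15.4, 19.4 and 14.2 CPM in Sham + Sema and 14.1, 18.2 and 16.9 CPM in Sham 1-3. Apart from TAC 8W + Sema 4W replicate 3, the 4-week set had 13.5 CPM of Mrps2 or less, and apart from TAC 8W replicate 1 the other set had 14.1 CPM or more. Mrpl1 was higher in the 4-week set (values below), and the set cannot be told apart from what else differs between them.

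Other features also differed in 3 of the libraries that stood apart. In each library, the deviations of all genes were correlated over genes with exon length, and Spearman's rho was 0.41 in TAC 8W replicate 1 and 0.44 in TAC 8W + Sema 4W replicate 3, so that long genes were high there, against -0.40 in Sham + Sema replicate 3. Cytosolic ribosomal protein genes, of the ribosome outside mitochondria, had library medians of -0.53, -0.84 and 0.98 in these 3 libraries, and nuclear genes of the oxidative phosphorylation (OXPHOS) complexes -1.27, -0.64 and 1.13. The summed level of the 8 cardiomyocyte markers was 32874 CPM in TAC 8W replicate 1, 64570 CPM in TAC 8W + Sema 4W replicate 3 and 106100 CPM in Sham + Sema replicate 3, with 0 markers at 0. After removal of the GC and length trend of each library, the member median was -0.94, -0.17 and 0.72 in them. Sham + Sema 4W replicate 3, also high, had a rho with length of -0.21, against -0.21 and -0.27 in replicates 1 and 2 of its group. Its member median was 0.78 before and after the removal. Its cytosolic ribosomal protein and nuclear OXPHOS medians were 0.80 and 0.97. The part of these features in the results below was not tested beyond that.

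**Figure D2:**
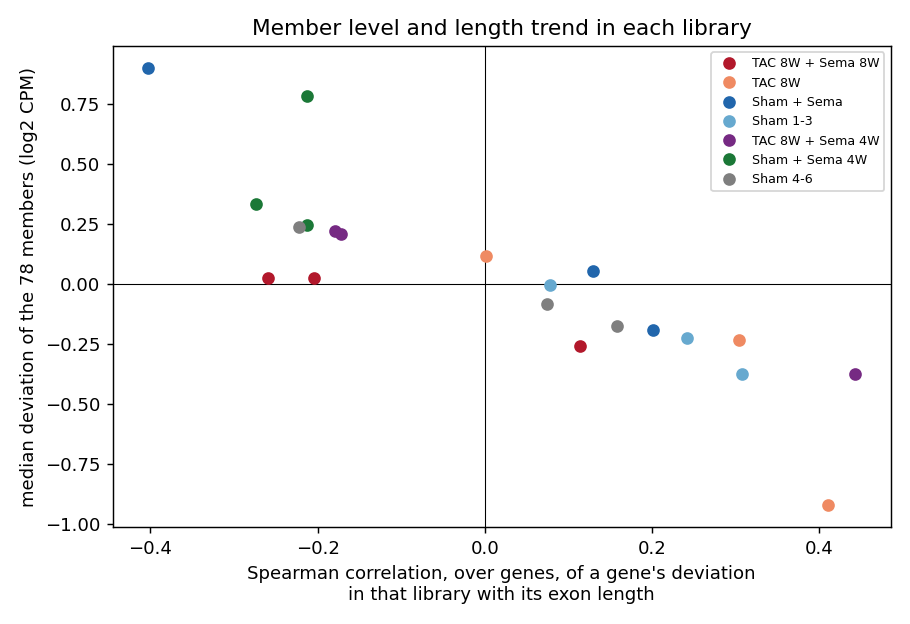
Median deviation of the 78 members in each library (y axis, log2 CPM) against that library's length trend (x axis, Spearman correlation over genes between a gene's deviation and its exon length), 1 point per library, coloured by group. The member median is 0.90 in the library with the lowest length trend (-0.40) and -0.92 and -0.37 in those with the highest (0.41 and 0.44).

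The effect of pressure overload was asked of TAC 8W against Sham 1-3. No member passed the threshold (edgeR, Benjamini-Hochberg adjusted p under 0.05), against 1.55% of the 12626 genes higher and 0.665% lower. The median log2 fold change of members was -0.08, with 24 of 78 above 0, and that of all genes 0.08. At an unadjusted p under 0.05 there was 1 member, and DESeq2 and limma-voom called 0, whereas limma-voom with sample weights called 2 lower. Here and below, such counts are not set against a background unless a share or number of all genes stands beside them. The groups overlapped for all 78 members, while 11.6% of genes were higher and 8.74% lower in TAC 8W without overlap. After removal of the GC and length trend, 0 members were higher and 3, among them Mrps31, lower without overlap. The shares of all genes were then 11.1% and 10.9%. Median changes were -0.08 in the large and -0.10 in the small subunit. Without TAC 8W replicate 1 the member median was 0.11, and without replicate 2 it was -0.34. Of the 8 fibroblast markers, only the collagens Col1a1 and Col1a2 passed the threshold, both higher. Summed fibroblast markers were 1252 to 2628 CPM in TAC 8W, against 1487 to 1971 CPM in Sham 1-3, with overlap. The summed cardiomyocyte markers were 32874 to 61857 CPM in TAC 8W, against 56596 to 66120 CPM in Sham 1-3, with 0 of 8 past the threshold. Their part in the members' values was not tested.

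Mrps31, a mitochondria-specific protein of the small subunit, had the smallest p in this comparison. It had 19.8, 31.7 and 35.6 CPM in TAC 8W, against 39.5, 35.6 and 50.4 CPM in Sham 1-3. The highest TAC 8W library and the lowest sham met at 35.6 CPM, and the log2 fold change was -0.53 (SE 0.23, unadjusted p = 0.031, adjusted p = 0.338). Mrpl39, a mitochondria-specific protein of the large subunit, followed with 35.9, 61.1 and 48.6 CPM in TAC 8W, against 61.6, 55.9 and 64.6 CPM in Sham 1-3. Its groups overlapped (log2 fold change -0.32, SE 0.20, adjusted p = 0.604).

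Giving Sema from surgery on was compared with overload alone, TAC 8W + Sema 8W against TAC 8W. No member passed, against 0.483% of genes higher and 5.18% lower. The member median was 0.24, with 62 of 78 above 0, and the median of all genes -0.12, so that members lay 0.35 above all genes. With RLE factors the median of all genes was -0.04 and members lay 0.34 above it. After removal of the GC and length trend, the difference was 0.14. There was 1 member at an unadjusted p under 0.05, DESeq2 and limma-voom called 0, and limma-voom with sample weights called 4 higher and 1 lower. Without overlap between the groups, 0 members were higher and 1 was lower, against 8.46% and 18.9% of genes. After the trend was removed, 3 members (Mrpl16, Mrpl50 and Mrps30) were higher and 0 lower, against 10.8% and 11.7% of genes. Without TAC 8W replicate 1 the member median was 0.07. Of the fibroblast markers Col1a1 (-1.55) and Col1a2 (-1.53) fell, as did Rgs5 (-1.27) of the mural markers. Summed fibroblast markers were 1602 to 1965 CPM in TAC 8W + Sema 8W, against 1252 to 2628 CPM in TAC 8W, and summed cardiomyocyte markers 51560 to 55551 CPM, against 32874 to 61857 CPM. Their part in the members' values was not tested.

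Mrpl1 was the member that was lower before that removal. It had 9.93, 13.3 and 6.28 CPM in TAC 8W + Sema 8W, against 14.1, 21.3 and 24.5 CPM in TAC 8W. Each library with Sema was below each without, yet the change did not pass (log2 fold change -1.01, SE 0.36, unadjusted p = 0.011, adjusted p = 0.107). After removal of the GC and length trend its groups overlapped, with a log2 fold change of -0.39. Mrps24, the small-subunit protein that corresponds to bacterial S3 at the mRNA entry, had 117, 90.1 and 143 CPM in TAC 8W + Sema 8W, against 42.8, 94.9 and 71.0 CPM in TAC 8W. Its groups overlapped (log2 fold change 0.75, SE 0.36, adjusted p = 0.253), and it shares exons with Urgcp on the same strand.

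Sema without overload was measured in both sets. In Sham + Sema against Sham 1-3, 0 members passed, as did 0% of all genes in either direction. The member median was 0.55, with 77 of 78 above 0, against -0.01 for all genes. At an unadjusted p under 0.05 there were 8 members higher and 0 lower, of 296 and 160 genes, DESeq2 and limma-voom called 0, and limma-voom with sample weights called 2 higher. Without overlap 11 members were higher and 0 lower, against 4.92% and 5.73% of genes. Cytosolic ribosomal protein genes (median 0.70, 7 of 76 without overlap) and nuclear OXPHOS genes (0.69, 11 of 75) were at like values. Without Sham + Sema replicate 3, which held the highest value of its group for 77 of 78 members, the member median was 0.13. The summed cardiomyocyte markers were 62419 to 106100 CPM in Sham + Sema, against 56596 to 66120 CPM in Sham 1-3, and the summed fibroblast markers 1131 to 1514 CPM, against 1487 to 1971 CPM. Their part was not tested.

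The smallest p belonged to Mrpl19 and Mrpl21, large-subunit proteins with bacterial counterparts. Mrpl19 had 30.5, 29.1 and 56.5 CPM in Sham + Sema, against 25.1, 23.5 and 22.3 CPM in Sham 1-3, with no overlap (log2 fold change 0.71, SE 0.29, adjusted p = 0.890). Mrpl21 had 69.0, 48.1 and 111 CPM in Sham + Sema, against 44.9, 37.2 and 54.0 CPM in Sham 1-3, with overlap (log2 fold change 0.74, SE 0.33, adjusted p = 0.890). In both, the library that set the mean apart was replicate 3.

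In Sham + Sema 4W against Sham 4-6, 0 members passed and again 0% of all genes in either direction. The member median was 0.49, with 67 of 78 above 0, against -0.07 for all genes. At an unadjusted p under 0.05 there were 8 members higher and 0 lower, of 648 and 1150 genes, and DESeq2 and both limma-voom fits called 0. Without overlap between the groups 26 members were higher and 0 lower, against 8.73% and 9.84% of genes, 13 of 49 in the Mrpl and 13 of 29 in the Mrps series. Among cytosolic ribosomal protein genes these were 24 of 76 and among nuclear OXPHOS genes 27 of 75. After removal of the GC and length trend, 27 members were higher and 0 lower without overlap, against 12.9% and 6.15% of genes. Higher there were also 28 of 76 cytosolic ribosomal protein genes and 31 of 75 nuclear OXPHOS genes. Without Sham + Sema 4W replicate 3 the member median was 0.29. With all 6 shams as 1 group, 2 members passed. The summed cardiomyocyte markers were 75696 to 108610 CPM in Sham + Sema 4W, against 62350 to 77306 CPM in Sham 4-6, and their part was not tested.

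Mrps15, a small-subunit protein that binds rRNA in bacteria, and Mrpl54, a mitochondria-specific protein, had the smallest p. Mrps15 had 89.8, 91.2 and 204 CPM in Sham + Sema 4W, against 79.9, 67.4 and 61.4 CPM in Sham 4-6 (log2 fold change 0.88, SE 0.35, adjusted p = 0.345). Mrpl54 had 74.7, 74.98 and 155 CPM in Sham + Sema 4W, against 67.4, 45.1 and 38.5 CPM in Sham 4-6 (log2 fold change 1.01, SE 0.43, adjusted p = 0.345). Neither overlapped, and replicate 3 was the highest library with Sema in both.

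**Figure D3:**
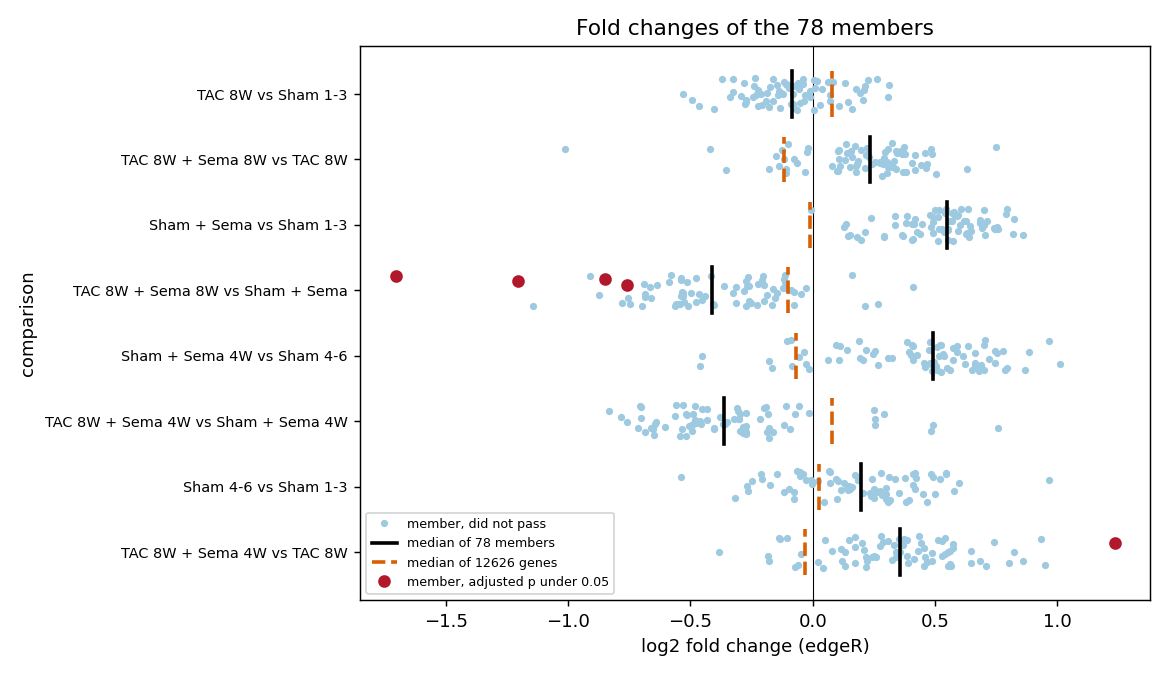
Log2 fold change of each of the 78 members (x axis) in 8 comparisons (y axis), 1 point per member, with the median of members (solid line) and of all 12626 genes (dashed line). Members past an adjusted p of 0.05 are red: 4 with TAC 8W + Sema 8W over Sham + Sema, the lowest being Mrpl1 at -1.70, and Mrpl1 at 1.23 with TAC 8W + Sema 4W over TAC 8W.

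Overload under Sema, TAC 8W + Sema 8W against Sham + Sema, was the comparison with the most members past the threshold. Mrpl1, Mrpl47, Mrpl39 and Mrps31 fell, 4 of 78, and 0 rose, against 2.42% of all genes lower and 0.737% higher. The member median was -0.41, with 4 of 78 above 0, against -0.10 for all genes. Without overlap 13 members were lower and 1 (Mrps23) higher, against 15.1% and 11.5% of genes. After removal of the GC and length trend, 26 members were lower without overlap and 1 (Mrps18b) higher, against 14.1% and 10.8% of genes. Of 75 nuclear OXPHOS genes, 12 were lower without overlap before the removal and 34 after it. Of 76 cytosolic ribosomal protein genes, these were 2 and 17. DESeq2 called 5 members lower, limma-voom 2 lower, and limma-voom with sample weights 10 lower and 3 higher. No share of all genes called by these methods stands beside these counts, so they have no background here. In the same comparison 10 of the 13 mitochondrially encoded genes fell, with a median of -1.91.

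Mrpl1 had 9.93, 13.3 and 6.28 CPM in TAC 8W + Sema 8W, against 28.4, 21.2 and 47.2 CPM in Sham + Sema. It had the largest change of the 78, a log2 fold change of -1.70 (SE 0.37, adjusted p = 0.016), and its groups did not overlap. Mrpl47, a large-subunit protein at the mouth of the peptide exit tunnel, had 11.5, 12.4 and 7.65 CPM in TAC 8W + Sema 8W, against 21.8, 18.3 and 33.2 CPM in Sham + Sema. It fell by 1.204 on the log2 scale (SE 0.29, adjusted p = 0.025), again without overlap, and its exons overlap those of Actl6a and Ndufb5 on the opposite strand.

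Mrpl39 had 48.6, 51.9 and 42.8 CPM in TAC 8W + Sema 8W, against 84.4, 66.7 and 91.4 CPM in Sham + Sema, and fell by 0.76 (SE 0.20, adjusted p = 0.043). Mrps31 had 26.8, 30.4 and 21.9 CPM in TAC 8W + Sema 8W, against 45.1, 47.8 and 49.4 CPM in Sham + Sema, and fell by 0.85 (SE 0.23, adjusted p = 0.047). Both were separated from Sham + Sema in every library. In TAC 8W without Sema, their levels (35.9, 61.1 and 48.6 CPM for Mrpl39 and 19.8, 31.7 and 35.6 CPM for Mrps31) spanned those of TAC 8W + Sema 8W.

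The calls, more than the fold changes, depended on single libraries. None of the 4 passed without Sham + Sema replicate 3, without TAC 8W + Sema 8W replicate 1 or without replicate 3 of that group. Over the 6 fits that each left out 1 library, the log2 fold change was -1.98 to -1.33 for Mrpl1, -1.38 to -0.92 for Mrpl47, -0.88 to -0.66 for Mrpl39 and -0.96 to -0.73 for Mrps31. Without Sham + Sema replicate 3 the member median was 0.00. Without Sham + Sema replicate 1 there was 1 call, and without TAC 8W + Sema 8W replicate 2 there were 2. After removal of the GC and length trend there were 0 calls among members, and calls over all genes were 89 lower, against 305 before it. The 4 members then had log2 fold changes of -1.23 for Mrpl1 (edgeR, adjusted p = 0.125), -1.01 for Mrpl47 (adjusted p = 0.160), -0.64 for Mrpl39 (adjusted p = 0.122) and -0.52 for Mrps31 (adjusted p = 0.267). Among members the median was then -0.32, and 16 members were lower at an unadjusted p under 0.05 with and without the removal. The number of all genes at that p is not given here, so the 16 have no background. The summed cardiomyocyte markers (8 of 8 above 0 counts) were 51560 to 55551 CPM in TAC 8W + Sema 8W, against 62419 to 106100 CPM in Sham + Sema, with a median log2 fold change of -0.74 and 0 of 8 past the threshold, and their part in the result was not tested.

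**Figure D4:**
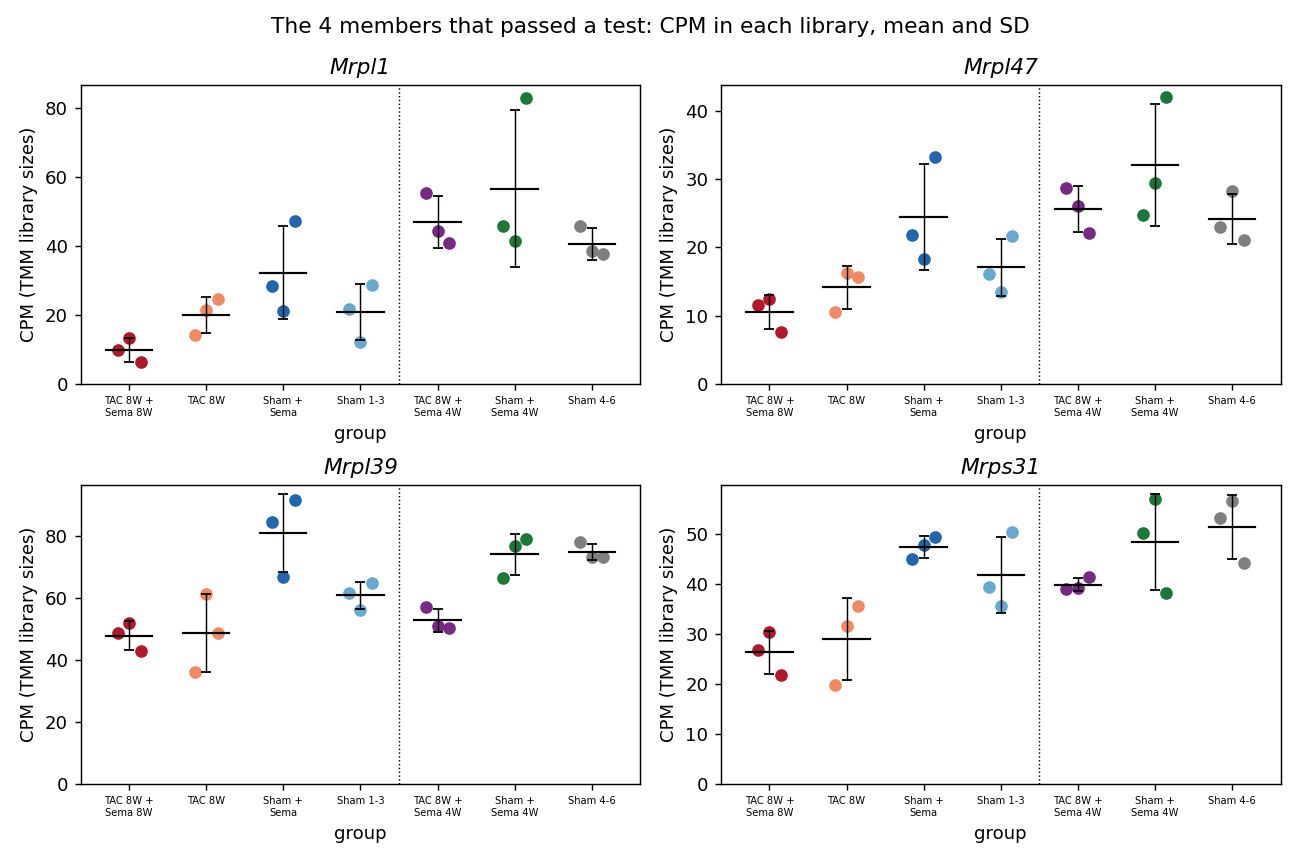
CPM with TMM library sizes (y axis) of Mrpl1, Mrpl47, Mrpl39 and Mrps31 in each library by group (x axis), with the mean (line) and SD (bars), n = 3. All 4 lie lower in TAC 8W + Sema 8W than in Sham + Sema, and Mrpl1 is at 37.5 CPM or more in all 9 libraries right of the dotted line.

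The interaction asks whether the change with Sema differed with and without overload, and 0 members passed it, against 0.0475% of genes higher and 0.428% lower. The member median was -0.31, with 9 of 78 above 0, and that of all genes -0.17. There were 2 members at an unadjusted p under 0.05 by edgeR, DESeq2 and limma-voom called 0, and limma-voom with sample weights called 3 lower. Those 2 were Mrpl1 (log2 value -1.64, SE 0.51, adjusted p = 0.156) and Mrpl47 (-0.93, SE 0.40, adjusted p = 0.361). A change past the threshold in one comparison and not in another is therefore not shown to differ between them.

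In the 4-week set, TAC 8W + Sema 4W against Sham + Sema 4W, 0 members passed, against 3.41% of genes higher and 1.45% lower. The member median was -0.36, with 7 of 78 above 0, and that of all genes 0.08. At an unadjusted p under 0.05 there were 2 members higher and 6 lower, of 2073 and 1126 genes, DESeq2 and limma-voom called 0, and limma-voom with sample weights called 1. Without overlap 2 members were higher and 17 lower, against 11% and 10% of genes, with 4 of 76 cytosolic ribosomal protein genes and 30 of 75 nuclear OXPHOS genes lower. Without Sham + Sema 4W replicate 3 the member median was -0.18, and leaving out replicate 3 of TAC 8W + Sema 4W instead gave -0.20. The summed cardiomyocyte markers were 64570 to 77236 CPM in TAC 8W + Sema 4W, against 75696 to 108610 CPM in Sham + Sema 4W, with 0 of 8 past the threshold. Lower past the threshold were Tcf21 and Gsn of the fibroblast, Tie1 of the endothelial, Kcnj8 of the mural and C1qa of the macrophage markers. Summed fibroblast markers were 590 to 873 CPM in TAC 8W + Sema 4W, against 959 to 2427 CPM in Sham + Sema 4W, and summed red blood cell markers 187 to 899 CPM, against 1148 to 1801 CPM, both without overlap. The part of these markers was not tested.

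Mrps26, a mitochondria-specific small-subunit protein, had 36.6, 33.2 and 25.9 CPM in TAC 8W + Sema 4W, against 44.9, 52.7 and 51.5 CPM in Sham + Sema 4W (log2 fold change -0.64, SE 0.25, adjusted p = 0.122). Mrpl27, which in bacteria reaches the site of peptide bond formation, had 40.0, 48.6 and 23.8 CPM in TAC 8W + Sema 4W, against 51.3, 60.3 and 82.1 CPM in Sham + Sema 4W (log2 fold change -0.78, SE 0.31, adjusted p = 0.130). Neither overlapped. Mrps18b went the other way, with 41.2, 44.7 and 32.4 CPM in TAC 8W + Sema 4W, against 26.9, 29.1 and 28.2 CPM in Sham + Sema 4W (log2 fold change 0.49, SE 0.20, adjusted p = 0.137).

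Late Sema against overload alone, TAC 8W + Sema 4W against TAC 8W, crosses the library sets. Mrpl1 rose and 0 members fell, 1 of 78, against 4.21% of genes higher and 3.05% lower. It had 55.3, 44.3 and 40.9 CPM in TAC 8W + Sema 4W, against 14.1, 21.3 and 24.5 CPM in TAC 8W (log2 fold change 1.23, SE 0.36, adjusted p = 0.041). Between vehicle shams of both sets it differed in the same direction, with 45.8, 38.4 and 37.5 CPM in Sham 4-6, against 21.6, 12.2 and 28.6 CPM in Sham 1-3 (log2 fold change 0.97, SE 0.36, adjusted p = 0.151). Relative to the shams of each set the difference between the TAC groups was not called for any member, against 0% of genes higher and 0.0158% lower, so set and treatment cannot be told apart here.

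The member median in TAC 8W + Sema 4W against TAC 8W was 0.35, with 69 of 78 above 0, and that of all genes -0.03. Without overlap 6 members were higher (Mrpl1, Mrpl45, Mrpl47, Mrpl50, Mrps22 and Mrps31) and 0 lower, against 11.3% and 10.2% of genes. DESeq2 called 4 members higher, limma-voom 2, and limma-voom with sample weights 41 higher and 1 lower. The shares of all genes called by these methods are not given here, so these counts are not set against a background. Without TAC 8W + Sema 4W replicate 3 there were 10 calls, and without replicate 1 or 2 of that group, or replicate 1 or 3 of TAC 8W, there were 0. Without TAC 8W replicate 2 another member was the single call, and Mrpl1 had an adjusted p of 0.072 by edgeR. Its log2 fold change was 1.09 to 1.41 over the 6 fits that each left out 1 library. Fibroblast and macrophage markers fell in 6 and 1 of 8 genes each in this comparison, with summed levels of 590 to 873 and 55.0 to 103 CPM in TAC 8W + Sema 4W, against 1252 to 2628 and 86.1 to 356 CPM in TAC 8W. Of the endothelial markers, Kdr was also lower past the threshold (log2 fold change -1.66, edgeR adjusted p = 0.022). All markers of these cell types were above 0 counts in every library, and their part in the members' values was not tested.

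In Sham 4-6 against Sham 1-3, 0 members passed, against 2.8% of genes higher and 0.491% lower, with a member median of 0.20 and 58 of 78 above 0. DESeq2 and limma-voom called 0, limma-voom with sample weights called 7 higher, and 1 member was at an unadjusted p under 0.05. After Mrpl1, the smallest p was that of Mrps5, a small-subunit protein tied to decoding accuracy, with 62.6, 56.6 and 48.99 CPM in Sham 4-6, against 38.4, 38.5 and 40.4 CPM in Sham 1-3 (log2 fold change 0.52, SE 0.26, adjusted p = 0.301). Of the 13 mitochondrially encoded genes 11 rose between these shams, with a median of 2.35. Relative to the shams of each set, TAC 8W + Sema 4W over TAC 8W had a member median of 0.18, with 60 of 78 above 0, and 0 members at an unadjusted p under 0.05. DESeq2 and limma-voom called 0 there, while limma-voom with sample weights called 2 higher. The smallest p there were those of Mrps18b (log2 value 0.39, SE 0.28, adjusted p = 1.00) and Mrpl45, which anchors the mitoribosome to the inner membrane (0.48, SE 0.36, adjusted p = 1.00).

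The relation between fold changes and GC content of members differed between comparisons. GC content was that of the longest annotated transcript of each gene. Over the 78 members, Spearman's rho between log2 fold change and GC content was 0.60 in TAC 8W + Sema 8W against TAC 8W and 0.33 in TAC 8W + Sema 8W against Sham + Sema, and -0.43 in TAC 8W + Sema 4W against Sham + Sema 4W. Over all 12617 genes with a value, these were 0.50, 0.51 and -0.27. Member values were nearer 0 in TAC 8W against Sham 1-3 (-0.02), Sham 4-6 against Sham 1-3 (-0.06), Sham + Sema against Sham 1-3 (0.13), TAC 8W + Sema 4W against TAC 8W (-0.14), also with each against its shams (-0.14), and Sham + Sema 4W against Sham 4-6 (0.22), and the interaction had 0.40. Genes of a comparison share its libraries, so no p is given. Mrpl1 has a GC content of 41.6%, the 6th lowest of the members, Mrps31 44.6%, Mrpl47 45.3% and Mrpl39 48.2%, whereas Mrps24 has 55.1%.

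**Figure D5:**
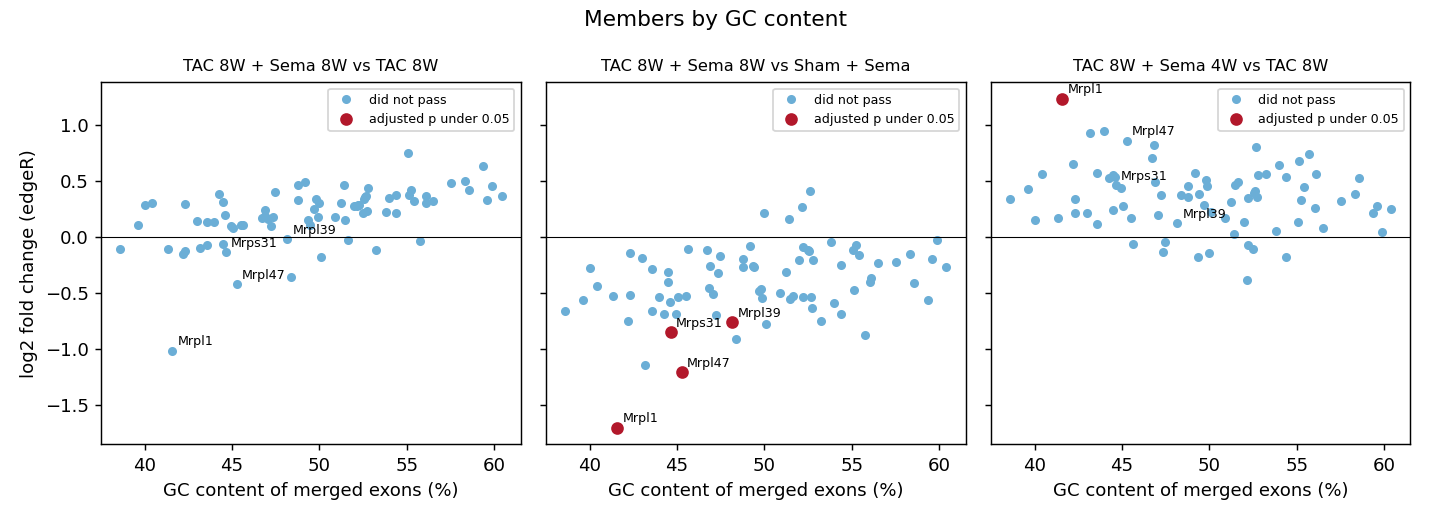
Log2 fold change of each member (y axis) against GC content (x axis, percent) in 3 comparisons, with members past an adjusted p of 0.05 in red and 4 members named. GC content is that of the longest annotated transcript, although the axis label names merged exons. Values rise with GC content in the left panel, TAC 8W + Sema 8W against TAC 8W (rho 0.60). They rise less so in the middle panel, TAC 8W + Sema 8W against Sham + Sema (rho 0.33). In the right panel, TAC 8W + Sema 4W against TAC 8W, rho is -0.14.

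Mrpl3, Mrpl44, Mrps22 and Mrps14, chosen for a link to human cardiomyopathy, did not pass in any of the 10 comparisons. Whether other members have such a link was not examined. Mrpl3, near the peptidyl transferase centre, had log2 fold changes of -0.08 in TAC 8W against Sham 1-3 and 0.11 in TAC 8W + Sema 8W against TAC 8W. Mrpl44, whose fold resembles RNase III, had -0.24 and 0.28. Mrps22, mitochondria-specific, had -0.19 and -0.35, and Mrps14 had 0.08 and 0.11. The spread was wide in Mrps22, with 17.4, 18.3 and 10.4 CPM in TAC 8W + Sema 8W, 14.3, 23.3 and 21.6 CPM in TAC 8W, 27.8, 18.9 and 40.6 CPM in Sham + Sema and 22.4, 18.8 and 26.2 CPM in Sham 1-3.

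Members with a role beside the ribosome's core stood no further apart. Mrpl12 had 239, 180.4 and 253 CPM in TAC 8W + Sema 8W, 105, 247 and 169 CPM in TAC 8W, 216, 196 and 479.6 CPM in Sham + Sema and 170.2, 159 and 215 CPM in Sham 1-3. Its low and high libraries were those of the members as a whole, and it had log2 fold changes of -0.06 in TAC 8W against Sham 1-3 and 0.37 in TAC 8W + Sema 8W against TAC 8W. Mrpl58, a peptidyl-tRNA hydrolase that frees stalled ribosomes, had -0.12 and 0.34, and Mrpl32, whose maturation by the m-AAA protease gates assembly, -0.06 and -0.15. Mrps12, of the decoding centre, had 0.15 and 0.32. Mrps36, which in human cells belongs to the 2-oxoglutarate dehydrogenase complex and not to the ribosome, had -0.11 and 0.10.

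The 3 Mrps18 paralogs take different places in the mitoribosome and had different values. Mrps18c is the small-subunit counterpart of bacterial S18, Mrps18b sits elsewhere in the small subunit, and Mrps18a, like Mrps30, sits in the large subunit in spite of its name. In TAC 8W + Sema 8W against Sham + Sema, Mrps18b had 40.7, 30.7 and 42.5 CPM in TAC 8W + Sema 8W, against 26.9, 27.7 and 31.2 CPM in Sham + Sema, with overlap and a log2 fold change of 0.41, the highest of all members. Mrps18c had a log2 fold change of -0.40, Mrps18a -0.08 and Mrps30 -0.44. None of these passed.

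Members with a bacterial counterpart and those without had like medians. In TAC 8W against Sham 1-3 these were -0.08 over 47 and -0.12 over 29 genes, and in TAC 8W + Sema 8W against Sham + Sema -0.41 and -0.31. The 5 other mitoribosome proteins had medians of -0.09 and -0.43 in the same comparisons, with 0 past the threshold in any comparison. The nearest was Ptcd3 of the small subunit, at -1.05 in TAC 8W + Sema 8W against Sham + Sema (SE 0.29, adjusted p = 0.054).

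Other genes of mitochondrial translation and mtDNA expression passed the test in some comparisons. In TAC 8W + Sema 8W against Sham + Sema, 2 of 15 translation factors, 1 of 30 genes of mitoribosome assembly and rRNA modification, 0 of 22 aminoacyl-tRNA synthetases and 2 of 22 genes of mtDNA transcription and RNA processing fell, and 0 rose. Beside these, 2.42% of all genes were lower and 0.737% higher. Pnpt1, a nuclease that degrades RNA, had a log2 fold change of -1.30 (SE 0.27, adjusted p = 0.012), the initiation factor Mtif2 -1.56 (SE 0.33, adjusted p = 0.015) and Trmt10c, of the RNase P complex, -1.63 (SE 0.37, adjusted p = 0.019). Against TAC 8W, Pnpt1 (-1.01, adjusted p = 0.026) and Mtif2 (-1.21, adjusted p = 0.032) fell in TAC 8W + Sema 8W, beside 5.18% of all genes lower and 0.483% higher. In TAC 8W against Sham 1-3, 0 genes of these lists passed, beside 1.55% of all genes higher and 0.665% lower. Tfam, which packages mtDNA, did not pass in TAC 8W + Sema 8W against Sham + Sema (-0.93, SE 0.29, adjusted p = 0.083), nor did the RNA polymerase Polrmt (0.06, SE 0.25, adjusted p = 0.941).

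Across the sets, in TAC 8W + Sema 4W against TAC 8W, 2 of 15 translation factors, 2 of 30 assembly genes, 0 of 22 synthetases and 3 of 22 genes of mtDNA transcription and RNA processing rose and 0 fell, beside 4.21% of all genes higher and 3.05% lower. They included Mterf3, needed for assembly of the large subunit, at a log2 fold change of 1.42 (SE 0.27, adjusted p = 0.0051), Trmt10c at 1.73 (SE 0.36, adjusted p = 0.0076) and Mterf1a, a factor that ends transcription, at 2.31 (SE 0.52, adjusted p = 0.011). Between shams, Pnpt1 (1.08, adjusted p = 0.027) and Mterf3 (1.05, adjusted p = 0.037) were also higher in Sham 4-6 than in Sham 1-3. In TAC 8W + Sema 4W against Sham + Sema 4W, Sars2, which charges serine tRNA, fell by 0.89 on the log2 scale (SE 0.24, adjusted p = 0.041) and Mettl17, an assembly factor of the small subunit, by 1.01 (SE 0.27, adjusted p = 0.041).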

How the data were processed

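Per the authors' methods and processing notes, adapters were removed (cutadapt 1.11), hisat2 placed the reads on mm10 and featureCounts 1.6.0 gave counts per gene. The deposited values are raw counts, with 21 columns used and 0 left over. No source used here gives the gene annotation or the strandedness of counting. The labels give a daily dose of 60.0 mg/kg, while the methods write micrograms.

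Symbols, exon lengths (merged exons) and GC content (longest transcript) came from GENCODE M21 (GRCm38). Genes were filtered with filterByExpr (minimum count 10, minimum total 15), scaled by TMM and fitted in edgeR 4.0.16 (R 4.3.3) with 7 means over 21 libraries, a quasi-likelihood F test and Benjamini-Hochberg adjustment over 12626 genes (threshold 0.05). Standard errors were derived from F. Log2 CPM used a prior count of 2. No source says that replicates were separate animals, so p-values measure the spread between these libraries. Alternatives were upper quartile and RLE factors, DESeq2 1.42.0, limma 3.58.1 voom with and without sample weights, other filters, fits of fewer libraries, shams as 1 group, no mitochondrial genes, removal of the GC and length trend (splines, 5 degrees of freedom), a replicate block and leaving out each library. The fit was tested on simulated data.

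Members and lists were chosen with earlier results of these data known. Named are, per comparison, up to 4 members in each direction past the threshold or the 2 with the smallest p, 13 members of special roles, the 3 highest and 3 lowest by level, and up to 3 called genes per direction of the other lists. Mrps2, Mrpl9, Mrps23, Mrpl50, Mrpl10, Mrpl16, Mrpl17, Mrpl28, Mrpl49 and the cell type markers were named as exceptions or single cases after their values were seen.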

Additional observations from a re-analysis of the deposited data

Results flagged for a closer look

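Over the 6 sham libraries, the member median, the large and small subunit medians and each member were tested for a library far from the rest (the gap to the nearest over the whole range, by Dixon's critical value), a rule that chance meets in about 1 in 20. Of 81 items 4 met it, each through Sham replicate 4. Mrpl10 had 23.6 CPM there, against 29.4 to 32.8 CPM in the other shams, and Mrps2 had 7.29 CPM, against 13.04 to 18.2 CPM. Mrpl17 had 56.2 CPM, against 32.9 to 39.8 CPM, and Mrpl28 had 197 CPM, against 122 to 139 CPM. No member passed a test of a difference between effects.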

How the results depend on the processing

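Over the settings that kept every library, or left out only shams 4 to 6, the other set or the groups not compared, the member median was -0.19 to -0.03 in TAC 8W against Sham 1-3 (reported value -0.08) and -0.37 to -0.11 in TAC 8W + Sema 8W against Sham + Sema (reported value -0.41), the -0.11 with limma-voom sample weights. In TAC 8W + Sema 8W against Sham + Sema (4 calls) there were 2 with limma-voom, no count filter, the same library set, RLE factors or no mitochondrial genes, 0 with the groups compared alone, the replicate block or the GC and length trend removed, and 13 with limma-voom sample weights. In TAC 8W + Sema 4W against TAC 8W (1 call) there were 2 with the stricter filter, limma-voom or the trend removed, 3 without mitochondrial genes, 4 with DESeq2, 0 with the groups compared alone or the replicate block, and 42 with sample weights. Where 0 members passed, sample weights gave 2 in TAC 8W against Sham 1-3, 5 in TAC 8W + Sema 8W against TAC 8W, 2 in Sham + Sema against Sham 1-3, 3 in the interaction, 1 in TAC 8W + Sema 4W against Sham + Sema 4W, 7 between shams and 2 in the TAC groups each against its shams. The groups compared alone gave 1 between shams, and all shams as 1 group gave 2 in Sham + Sema 4W against Sham 4-6. The cause was not tested. No share of all genes called under the same setting is given beside these counts.

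Leaving out each library gave 0 to 4 calls in TAC 8W + Sema 8W against Sham + Sema, 0 to 10 in TAC 8W + Sema 4W against TAC 8W, and 0 in the other comparisons. Member medians ranged from -0.34 to 0.11 in TAC 8W against Sham 1-3, 0.07 to 0.47 in TAC 8W + Sema 8W against TAC 8W, 0.13 to 0.76 in Sham + Sema against Sham 1-3, -0.61 to 0.0011 in TAC 8W + Sema 8W against Sham + Sema, -0.51 to 0.12 in the interaction, 0.29 to 0.63 in Sham + Sema 4W against Sham 4-6, -0.48 to -0.18 in TAC 8W + Sema 4W against Sham + Sema 4W, 0.07 to 0.33 between shams, 0.14 to 0.59 in TAC 8W + Sema 4W against TAC 8W and 0.0076 to 0.42 with each against its shams.

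Same-numbered libraries did not deviate together (11 of 45 correlations above 0.1, mean -0.026), so the main fit did not pair them by number. These correlations alone cannot exclude a pairing. The replicate block, fitted without shams 4 to 6, moved the calls to 0 as given above and changed no count in the other 5 comparisons it could give. The median level of 24.6 CPM per kb was 38.7 over nuclear counts alone. The biological coefficient of variation over all genes was 34.6%, with 3 libraries in each mean.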
